A study of Homo sapiens with 8 samples.

Results

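Among the m6A peaks mapped in BCPAP cells after METTL3 knockdown, 1812 peaks on 1537 genes lay in a 5' UTR of a gene that had no peak in its 3' UTR. They were taken from the authors' deposited table of 10987 peaks on 7081 named genes, by the region named in the authors' annotation. A gene was kept when at least 1 of its peaks was placed in a 5' UTR and 0 in a 3' UTR, and its 5' UTR peaks were then the members. No fold change or score entered this choice. Of the 2538 peaks placed in 5' UTRs, 672 belonged to 558 genes that also had a 3' UTR peak, 43 had no gene name and 11 belonged to pseudogenes, and these were left out. BCPAP is an established cell line of papillary thyroid carcinoma origin. The study compared METTL3 knockdown cells, as anti-m6A immunoprecipitate and as input without antibody, with control cells prepared in the same 2 ways, in 4 groups of 2 libraries and 8 libraries in all. Titles name sh1 for 1 knockdown library of each kind and sh3 for the other, and the labels do not state separate cultures within a group. The table gives 1 log2 fold change, 1 p-value and 1 false discovery rate (FDR) per peak for the whole comparison. It therefore carries no value per library, no replicate spread can be attached to a peak, and the depth of each library is unknown. It holds no expression levels, so neither the depletion of METTL3 nor the thyroid identity of the cells could be checked in it. The header of the fold change does not name its reference. It was read here as METTL3 knockdown relative to control, and every "lower" and "higher" below would turn around if it were the reverse.

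N6-methyladenosine is written on mRNA by a nuclear complex in which METTL3 is the catalytic subunit and METTL14 its partner, at adenosines in a short consensus whose core is often GGAC. Most of these sites lie near stop codons, in long internal exons and in 3' UTRs. The 5' end of an mRNA carries a related mark: where the base next to the cap is an adenosine, it can be methylated at the same position of the base by PCIF1, and antibodies raised against m6A also bind this cap-adjacent form (m6Am). A 5' UTR peak in an immunoprecipitation can hold either mark, and the antibody signal does not separate them. Methylation inside a 5' UTR has also been linked to recruitment of the translation machinery without the usual cap-binding factors.

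The sequences at the starts of these transcripts show which bases a 5' UTR peak can contain. The first 30 bases from a RefSeq transcription start (GRCh38.p14) are printed for named peaks that cover such a start, the 4 with the lowest and the 4 with the highest fold change, with the base next to the cap in capitals.
NAA35: Atacgcatgcgtgcacgctgccggtcgggc
SET: Actgaggaatgttccaagcttaggtgaggc
SMIM29: Gttcctgtcggggctgcagcggcgggaggt
EIF2B3: Agaggcggcgtggagatcgctgggagcggt
NR4A1: Tttctccgccggctgcgggaaccggttcca
FAN1: Gatcttgggtgacagggcaccgagggaagg
KRTAP2-2: Accagcctcagacaccaccatgaccggctc
SPP1: Agcagcaggaggaggcagagcacagcatcg
The first 4 belong to peaks that were lower and the last 4 to peaks that were higher. NAA35 (chromosome 9, 85941146 to 85941175), SET (chromosome 9, 128683424 to 128683453), FAN1 (chromosome 15, 30903915 to 30903944), NR4A1 (chromosome 12, 52037715 to 52037744) and SPP1 (chromosome 4, 87975714 to 87975743) lie on the plus strand. SMIM29 (chromosome 6, 34248977 to 34249006), EIF2B3 (chromosome 1, 44986566 to 44986595) and KRTAP2-2 (chromosome 17, 41055201 to 41055230) lie on the minus strand.

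Among named peaks of at most 300 bases, 3 held the core GGAC within the first 50 transcribed bases. They are printed in 30-base windows with the motif in capitals. All 3 belong to peaks that were lower, but most higher named peaks of this width reach few or none of those 50 bases. PARK7, QTRT2 and PHLDA1 begin 39, 37 and 303 bases after the nearest RefSeq start, and U2AF1L5 has no RefSeq start. The direction of the 3 peaks therefore cannot be compared with that of the higher ones.
C3orf52: ctgccggcacatGGACctggcccaaccctc
RCC1L: aGGACTggtgttaagggtcacgcaagatgg
PSMD12: gaagcagggggacagcaagGGACgctcagg
The C3orf52 window lies on the plus strand of chromosome 3 (112086398 to 112086427). Those of RCC1L (chromosome 7, 75073773 to 75073802) and PSMD12 (chromosome 17, 67366528 to 67366557) lie on the minus strand. RCC1L holds the longer form GGACT. The match nearest the middle of the peak is marked, and the PSMD12 window holds an earlier one in lower case. The RefSeq genome sequence beyond these first bases was not used here, so motifs further inside the peaks were not searched.

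The annotation as 5' UTR was set against the starts of the genes. Of the 1812 peaks, 72.3% touch the start of the annotated transcript by the distance in the authors' deposited table. This holds for 73.4% of the 5' UTR peaks of genes with both and for 7.98% of the 3' UTR peaks of genes without a 5' UTR peak. Region and distance both come from the authors' table, so these shares are not an independent check of the placing. A RefSeq start on the same chromosome was found by gene symbol for 1500 of the peaks. Of these, 636 (42.4%) cover a RefSeq start, 298 (19.9%) begin within 200 bases after it, 240 (16.0%) begin more than 200 and up to 5000 bases after it, 126 (8.40%) begin further away, and 200 (13.3%) end before it. The 1500 peaks were thus not all at a cap end known to RefSeq. Peaks are genomic spans that include introns. Their median span was 587 bases, with quartiles of 211 and 3410, and the largest covered 246697 bases. There were 643 peaks of at most 300 bases, 431 of up to 1000, 465 of up to 10000 and 273 of more than 10000. Strand is missing from the table, so sense and antisense partners cannot be told apart, and 93 of the 1812 peaks overlap a peak assigned to another gene.

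The next question was in which direction these peaks differed after METTL3 knockdown. Calls rest on a deposited FDR below 0.05 and on no fold change limit. Of the 1812 peaks 314 (17.3%) were called, against 17.1% of all peaks in the table. Of the called ones 169 were lower and 145 higher in the knockdown, so that 53.8% were lower (95% Clopper-Pearson interval 48.1 to 59.4%, which covers counting only, since peaks are not replicates). Among all peaks, 10.6% were called lower and 6.52% higher, and 62.0% of called peaks were lower (interval 59.7 to 64.2%). The median log2 fold change of the 1812 peaks was -0.16 in the authors' deposited table, with quartiles of -0.61 and 0.56, against a median of -0.24 over all peaks. Most changes were small: called lower peaks had a median of -0.45 and called higher peaks a median of 0.43 in the authors' deposited table, and 177 of the 314 called peaks (56.4%) changed by less than 0.5 on the log2 scale. Once the median of all peaks was subtracted, 147 of the called peaks lay below 0 and 167 above it, so 46.8% were lower. Over all peaks of the table the same step left 1015 called peaks below 0 and 867 above it, or 53.9% lower.

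The 5' UTR peaks of the 558 genes that also had a 3' UTR peak gave similar counts, with 52 lower and 54 higher among 672 peaks (15.8% called). Their share of lower peaks was 49.1% of those called (interval 39.2 to 59.0%). In the same 558 genes 141 of the 3' UTR peaks were lower and 53 higher, or 72.7% lower (interval 65.8 to 78.8%). The 268 exon peaks of the 1537 genes, which lie on 199 of them, had 17 lower and 31 higher (35.4% lower, interval 22.2 to 50.5%). These groups are described by their counts, and no test between them was run.

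The share called differed with width, much as it did over all peaks. Of the peaks of at most 300 bases 7.31% were called, 25 lower and 22 higher. Of those above 300 and up to 1000 bases 15.8% were called, 39 lower and 29 higher. The class above 1000 and up to 10000 bases had 28.2% called, 75 lower and 56 higher, and that of more than 10000 bases had 24.9% called, 30 lower and 38 higher. Over all peaks of the table the shares called in these 4 classes, narrow to wide, were 8.47, 19.6, 29 and 23.2%. The share of lower peaks among called ones was 53.2% (interval 38.1 to 67.9%) in the narrowest class and 44.1% (interval 32.1 to 56.7%) in the widest. Fold changes were larger in narrow peaks, with a median absolute log2 fold change of 0.86 at 300 bases or less and of 0.44 above 10000 bases in the authors' deposited table. All peaks showed the same, at 0.92 and 0.47 in the same table. The number of reads behind a peak is not in the table, and the part of read number and of introns in these differences was not tested. Spans over 1000 bases made up 40.7% of the 1812 peaks and 63.4% of the called ones.

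**Figure D1:**
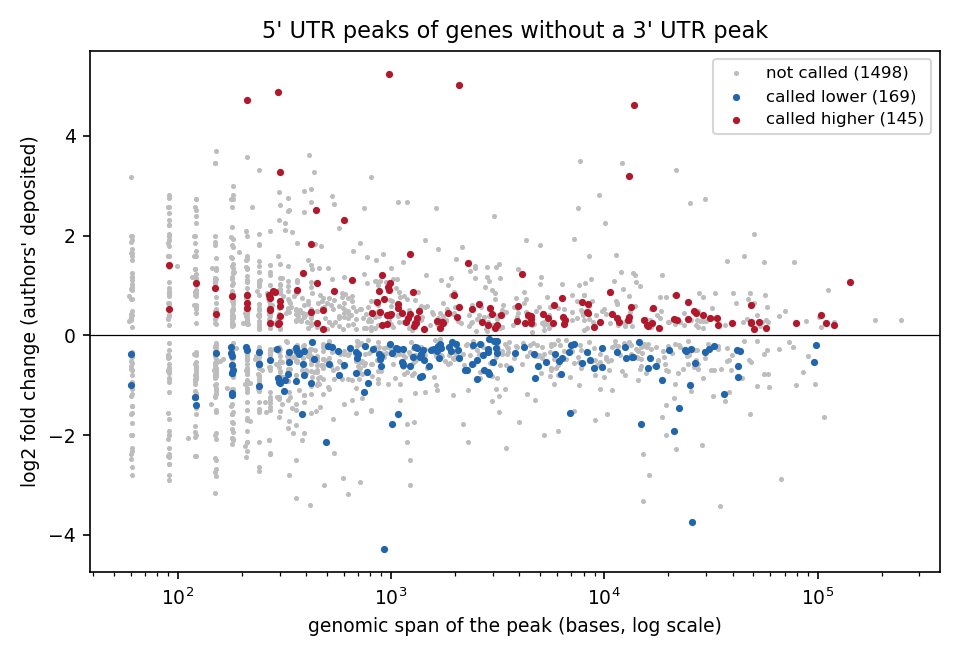
Log2 fold change of each of the 1812 5' UTR peaks, read as METTL3 knockdown relative to control, against its genomic span in bases on a log axis, with 169 peaks called lower in blue, 145 called higher in red and the others in grey. Absolute changes are larger among narrow spans (median 0.86 at 300 bases or less) than among wide ones (median 0.44 above 10000 bases).

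The direction of calls in each width class was then set beside that of the 3' UTR peaks of genes without a 5' UTR peak. Of the members of at most 300 bases 25 were called lower and 22 higher, 53.2% lower as given above. The 3' UTR peaks of that width had 184 lower and 16 higher, a share of 92.0% lower (interval 87.3 to 95.4%). Above 300 and up to 1000 bases 57.4% of called members were lower (interval 44.8 to 69.3%), against 73.6% of the 3' UTR peaks (interval 68.1 to 78.6%). Above 1000 and up to 10000 bases the shares were 57.3% of members (interval 48.3 to 65.9%) and 60.2% of 3' UTR peaks (interval 54.3 to 65.9%), with 171 lower and 113 higher of the 3' UTR peaks. Above 10000 bases they were 44.1% of members (interval 32.1 to 56.7%) and 72.4% of 3' UTR peaks (interval 52.8 to 87.3%). The intervals, which cover counting only, did not overlap in the narrowest class and overlapped in the other 3. Over all peaks of the table, which include both groups, 79.4% of called peaks of at most 300 bases were lower (316 against 82 higher). In the 3 wider classes, narrow to wide, the shares over all peaks were 63.2, 52.8 and 54.5%. In the 558 genes with both kinds of peak, 71.4% of the called 5' UTR peaks of at most 300 bases were lower (10 against 4 higher, interval 41.9 to 91.6%), and 84.6% of their 3' UTR peaks (44 against 8 higher, interval 71.9 to 93.1%).

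**Figure D2:**
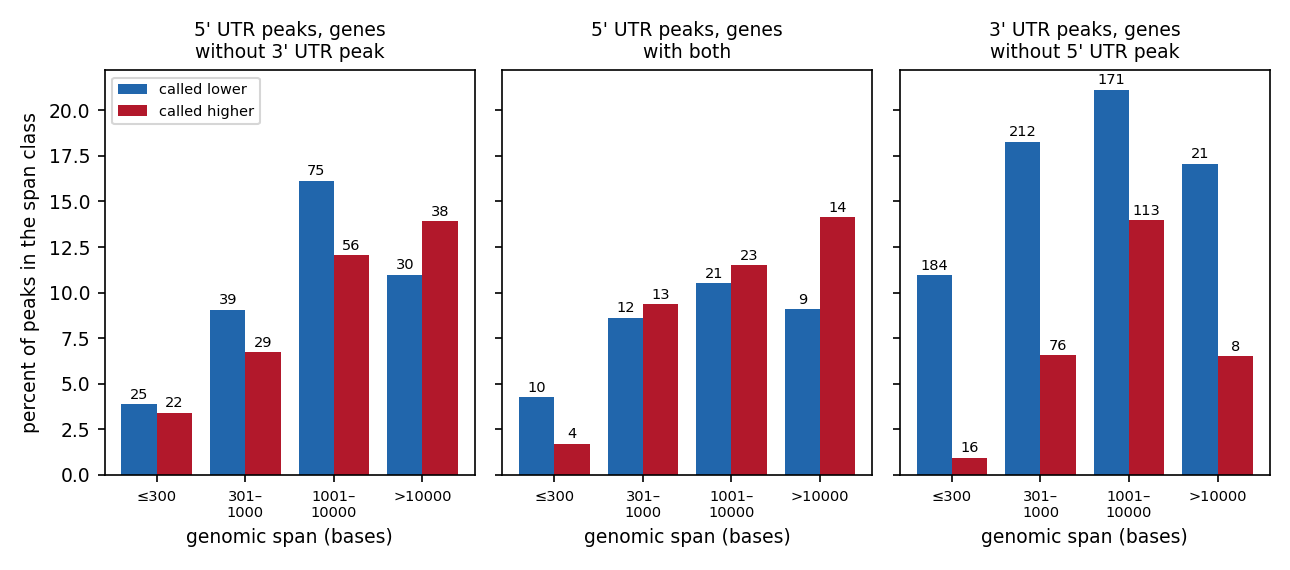
Percent of peaks called lower (blue) and higher (red) in 4 classes of genomic span, with the number called above each bar, for 5' UTR peaks of genes without a 3' UTR peak (left), 5' UTR peaks of genes with both (middle) and 3' UTR peaks of genes without a 5' UTR peak (right). On the left 25 lower stand beside 22 higher in the narrowest class, whereas 184 lower stand against 16 higher in the narrowest class on the right. Over all peaks of the table that class had 316 lower and 82 higher.

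The counts also differed with position relative to the start. Peaks covering a RefSeq start had 74 lower and 53 higher (58.3% lower, interval 49.2 to 67.0%), with 20.0% called and a median of -0.20 on the log2 scale of the authors' deposited table. Those beginning 1 to 200 bases after it had 20 lower and 17 higher (54.1% lower, interval 36.9 to 70.5%), with 12.4% called. More than 200 and up to 5000 bases after the start 17.9% were called, 19 lower and 24 higher (44.2% lower, interval 29.1 to 60.1%), with a median of 0.24. Of these, spans over 10000 bases had 1 lower and 8 higher and those above 1000 and up to 10000 bases 11 lower and 7 higher, while the narrower classes had 5 lower and 7 higher above 300 bases and 2 of each at most 300 bases. Beyond 5000 bases 17.5% were called, 7 lower and 15 higher (31.8% lower, interval 13.9 to 54.9%), with a median of 0.16. Peaks that end before the nearest RefSeq start had 15 lower and 3 higher (83.3% lower, interval 58.6 to 96.4%), with a median of -0.37 and 9.0% called. By the authors' distance 71.5% of these touch the annotated start, so most lie before a start only by the RefSeq starts used here. The annotated start is also touched by 34.2% of peaks placed more than 200 and up to 5000 bases after a RefSeq start, and by 31.0% of those placed further away. Spans differ between these places, with a median of 842 bases for peaks that cover a start and of 283 bases for those beginning within 200 bases after it, so the counts by place are not free of width.

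**Figure D3:**
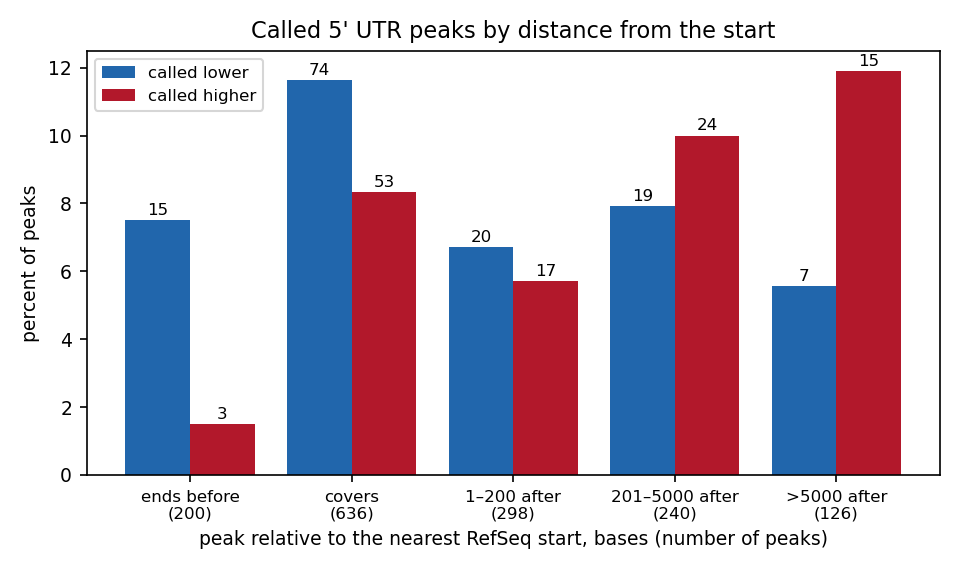
Percent of 5' UTR peaks called lower (blue) and higher (red) by where the peak lies relative to the nearest RefSeq start of its gene, with the number called above each bar and the number of peaks under each place. Lower peaks outnumber higher ones before and over the nearest RefSeq start (15 against 3 and 74 against 53), although 71.5% of peaks before it touch the start annotated by the authors. Higher ones outnumber lower ones more than 200 bases after the RefSeq start (24 against 19, of which 8 against 1 in spans over 10000 bases, and 15 against 7).

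Sequence at the start was described for the 636 peaks that cover one, taking the start of lowest coordinate where several were covered. The base next to the cap was A in 353 (55.5%), G in 223 (35.1%), C in 57 (8.96%) and T in 3 (0.472%), against 44.4% A, 33.6% G, 14.7% C and 7.24% T over all 35116 starts of the RefSeq table. Of the peaks with A at the start 41 were called lower and 32 higher. With G there were 29 lower and 10 higher, and with C 4 lower and 10 higher. Start peaks with an A, the base that can carry m6Am, thus had a share of lower calls of 56.2% (interval 44.1 to 67.8%). Those with a G had 74.4% (interval 57.9 to 87.0%) and those with a C 28.6% (interval 8.39 to 58.1%). The share was 58.3% over all called peaks that cover a start and 62.0% over all called peaks of the table. The motif GGAC, searched on the transcript strand of the first 50 bases, was present in 142 of the 636 (22.3%), against 18.9% of all starts. Where it was present 12 peaks were lower and 10 higher, and where it was absent 62 were lower and 43 higher. GGACT, which is contained in the GGAC matches, was present in 34 (5.35%), against 4.90% of all starts, with 1 lower and 4 higher.

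The peaks that fell most were then examined, beginning with spans of at most 1000 bases. SLC25A46, a solute carrier family protein of the mitochondrial outer membrane, fell by 4.28 on the log2 scale (ENSG00000164209, chromosome 5, 110738027 to 110738956, FDR 0.00269, from the authors' deposited table). This peak touches the annotated start by the authors' distance and ends shortly before the nearest RefSeq start. An exon peak of the gene was lower too, at -0.34 in the same table. NAA35, an auxiliary subunit of the NatC complex that acetylates protein N termini, fell by 2.15 (ENSG00000135040, chromosome 9, 85941146 to 85941641, FDR 0.000676, from the authors' deposited table). Its first base lies at the start of the sequence shown above, at a cap-adjacent A. KNTC1, a kinetochore protein of the spindle checkpoint, was at -1.58 (FDR 0.0331, from the authors' deposited table). The translation factor subunit EIF2B3, part of the exchange factor that recharges eIF2 with GTP, was at -1.24 (chromosome 1, 44986543 to 44986662, FDR 0.00316, from the authors' deposited table). C3orf52 and RCC1L were at -1.39 and -1.20 (FDRs 0.0417 and 0.0363, from the authors' deposited table). PSMD12, a subunit of the proteasome lid, was at -1.15 (ENSG00000197170, chromosome 17, 67366426 to 67366605, FDR 7.59e-05, from the authors' deposited table). The homeobox factor MEIS2 closed this set at -1.13 (FDR 0.0372, from the authors' deposited table). A wider MEIS2 peak that contains this one was at -0.44 and another at 0.58, neither called by the FDR of the authors' deposited table.

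Higher peaks of at most 1000 bases were led by members of near-identical gene families. MAGEA2B at 5.23, KRTAP2-2 at 4.87 and U2AF1L5 at 4.72 came first (FDRs 5.01e-14, 0.00692 and 1.17e-07, from the authors' deposited table). Reads of these genes can be placed on other copies, so their changes are uncertain. Of the genes that follow, XRCC3 and FAN1 both act in DNA repair, XRCC3 in homologous recombination and FAN1 as a nuclease at interstrand crosslinks. XRCC3 rose by 3.27 (ENSG00000126215, chromosome 14, 103711880 to 103712180, FDR 0.00457, from the authors' deposited table). A wider XRCC3 peak that contains it, and that overlaps a peak of KLC1, was at 1.12 (FDR 0.210, from the authors' deposited table). FAN1 rose by 2.52 (ENSG00000198690, chromosome 15, 30903906 to 30904350, FDR 0.00355, from the authors' deposited table). The immediate early nuclear receptor NR4A1 was at 2.31 (chromosome 12, 52037278 to 52037878, FDR 0.0275, from the authors' deposited table). KIAA0040 was at 1.83 with an FDR of 0.0447, and QTRT2, which helps to place queuine in transfer RNAs, was at 1.40 (FDR 0.0309, from the authors' deposited table). The KIAA0040 peak begins 32134 bases after the nearest RefSeq start.

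Among called peaks of at most 1000 bases, the smallest p-values were seen at small as well as at large changes. TMSB4X, the actin-sequestering thymosin beta 4, had the smallest p of the lower ones at a log2 fold change of -0.18 (FDR 7.94e-27, from the authors' deposited table). A peak assigned to GLA, the gene of the lysosomal alpha-galactosidase, was at -0.99 (FDR 7.94e-20, from the authors' deposited table). It spans 60 bases on chromosome X (101395291 to 101395350) and lies 12575 bases after the nearest RefSeq start of GLA. Whether it falls within the bounds of GLA is not shown here. It is contained in a wider peak assigned to GLA at -0.30 that overlaps a peak of HNRNPH2. SAP18, of the Sin3A corepressor and exon junction complexes, was at -0.32 and the splicing-associated PQBP1 at -0.41 (FDRs 6.46e-09 and 1.15e-08, from the authors' deposited table). On the higher side TUBA4A, an alpha tubulin, was at 0.13 with an FDR of 3.98e-11 and PARK7, the redox-sensing protein DJ-1, at 0.88 (FDR 5.13e-08, from the authors' deposited table). The PARK7 peak (chromosome 1, 7961750 to 7962029) begins 39 bases after a RefSeq start.

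Among spans over 1000 bases, FBXL13, an F-box protein, was at -3.75, the histone chaperone SET at -1.92 and the small membrane protein SMIM29 at -1.78 (FDRs 0.0437, 0.0204 and 0.0407, from the authors' deposited table). Their peaks cover 25709, 21285 and 14786 bases. A separate FBXL13 peak of 181 bases was at 3.00 (FDR 0.216, from the authors' deposited table). SET, like TMSB4X and RACK1 among the genes named here, has processed copies in the genome that can share its reads. SPP1, the secreted matrix protein osteopontin, was highest, with 2 overlapping peaks at 5.02 and 4.62 over 2081 and 13734 bases (FDRs 6.46e-07 and 0.00575, from the authors' deposited table). TEX22 was at 3.19 over 13067 bases and MSL2, a subunit of a histone acetyltransferase complex, at 1.62 over 1230 bases (FDRs 0.0204 and 0.0468, from the authors' deposited table).

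Large changes were few. Called members at 1 or more on the absolute log2 scale numbered 39, of which 18 were lower and 21 higher, against 2.86% of all peaks past both limits (1.5% lower and 1.36% higher). At an FDR under 0.01 there were 87 lower and 72 higher members (159 in all), where 9.24% of all peaks passed, 5.83% lower and 3.4% higher. At a p under 0.01 there were 227 lower and 185 higher, where 13.9% of all peaks passed as lower and 8.61% as higher, 22.5% in all. At a recomputed adjusted p under 0.05 there were 248 lower and 199 higher, against 15% lower and 9.28% higher among all peaks, 24.2% in all. Changes of at least 2 were called in 12 peaks, 3 lower and 9 higher. The matching share over all peaks was not computed. The 9 higher ones include both overlapping SPP1 peaks and the uncertain MAGEA2B, KRTAP2-2 and U2AF1L5. In all, 505 of the 1812 peaks (27.9%) had a change of 1 or more in either direction, and 39 of these 505 were called.

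Respiratory chain and mitochondrial ribosome genes had lower 5' UTR peaks. Of 12 peaks on 11 genes, 9 were called (75%), all lower, against 17.1% called among all peaks. NDUFA1, NDUFA6 and NDUFS5, subunits of complex I, were at -0.29, -0.26 and -0.17 (FDRs 3.89e-09, 0.000427 and 5.01e-12, from the authors' deposited table). COX11, which delivers copper to cytochrome c oxidase, was at -0.34 (FDR 0.0331, from the authors' deposited table). ATP5IF1, the inhibitor of the ATP synthase, was at -0.21 (FDR 7.59e-08, from the authors' deposited table). The mitochondrial ribosomal proteins MRPL36 and MRPL57 were at -0.21 and -0.17, and MRPS21, with separate peaks, at -0.28 and -0.14 by the authors' deposited table. Of the 3 peaks that were not called, MRPL49 was at -0.59, NDUFAF3 at 0.94 and NDUFA13 at 2.17 (FDRs 0.161, 0.557 and 0.210, from the authors' deposited table). The direction of this group turns with the scaling: once the median of all peaks was subtracted, 4 of the 9 lay below 0 and 5 above it. The 33 3' UTR peaks of genes with such symbols had 6 lower and 3 higher, with a median of -0.41. The 12 exon peaks of such genes had 3 lower and 0 higher, with a median of -0.625. The 5 5' UTR peaks of such genes that also have a 3' UTR peak had 1 lower and 0 higher. Lower calls were thus not particular to the members.

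Zinc finger genes named by a ZNF symbol, which mostly encode transcription factors with tandem zinc fingers, had higher calls and no lower ones. Their 73 peaks on 58 genes had 9 called higher and 0 lower (12.3% called), against 6.52% called higher and 10.6% called lower over all peaks. The median log2 fold change of the 73 peaks was 0.34 in the authors' deposited table, against -0.24 over all peaks. ZNF286A rose by 0.605 (chromosome 17, 15711414 to 15717231, FDR 0.00372, from the authors' deposited table), and its wider overlapping peak was at 0.44. ZNF579 and ZNF71, on chromosome 19, were at 0.52 and 0.47 (FDRs 1.55e-05 and 3.63e-06, from the authors' deposited table). All 9 called peaks span more than 1000 bases, from 1736 bases in ZNF691 to 24805 in ZNF215. The 53 5' UTR peaks of ZNF genes that also have a 3' UTR peak had 2 lower and 6 higher, and the 278 3' UTR peaks of ZNF genes had 13 lower and 17 higher. The 135 exon peaks of ZNF genes had 5 lower and 14 higher with a median of 0.46, so the tilt is not particular to the members. By symbol, the readthrough ZNF8-ERVK3-1 is among the 9 called and the antisense RNA ZNF667-AS1 among the others.

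**Figure D4:**
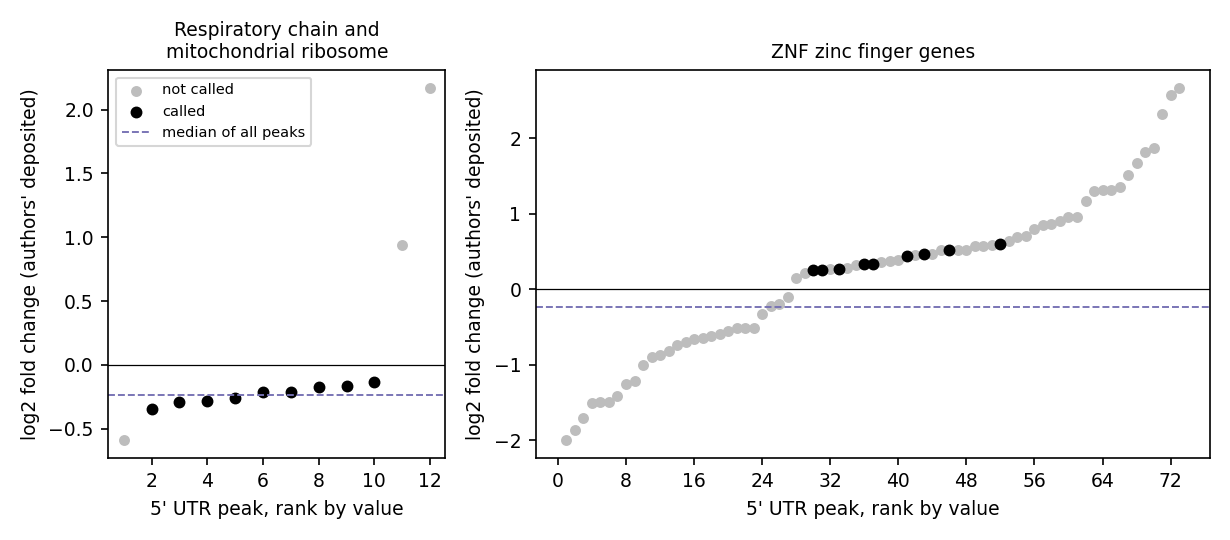
Log2 fold change, read as METTL3 knockdown relative to control, of each 5' UTR peak of respiratory chain and mitochondrial ribosome genes (left, 12 peaks) and of ZNF genes (right, 73 peaks), ordered by value, with called peaks in black and others in grey. The 9 called peaks on the left lie between -0.34 and -0.14, around the dashed line at the median of all peaks (-0.24), and the 9 on the right lie between 0.25 and 0.605.

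Cell cycle genes were often members. Of 11 genes of the cell cycle and replication list with any peak in the table, 9 (81.8%) had a 5' UTR and no 3' UTR peak, against 22.7% of all genes. AURKB, a kinase of the chromosomal passenger complex, was the 1 called of their 9 peaks (11.1%, against 17.1% of all peaks), at -0.30 (FDR 0.00339, from the authors' deposited table), and its peak begins 2225 bases after the nearest RefSeq start. The retinoblastoma gene RB1 was at -0.77 (FDR 0.0851, from the authors' deposited table). Its peak lies 90 bases from the annotated start by the authors' distance, although far before the nearest RefSeq start found by gene symbol. The cyclin-dependent kinases CDK4 and CDK6 were at 0.87 and 0.44 (FDRs 0.436 and 0.107, from the authors' deposited table). The KEGG cell cycle pathway was picked after the values were seen. Of its 42 genes with any peak, 19 were members (45.2%), against 25.6% of all genes with a KEGG term. These 19 genes had 21 peaks, of which 0 were called. Most of the 73 KEGG terms with at least 40 such genes also lay above 25.6%, though herpes simplex virus 1 infection had 17.8%. Apelin signaling (45.5%), hepatocellular carcinoma (45.2%) and Cushing syndrome (44.4%) had shares like that of the cell cycle. A high share of members was thus not particular to the cell cycle pathway. MAPK output and feedback genes had 7 of 15 genes as members (46.7%, against 22.7% of all genes), with 9 peaks. PHLDA1, a MAPK-induced pleckstrin homology domain protein, had the 1 called peak (11.1%, against 17.1% of all peaks), at 0.42 (FDR 0.0224, from the authors' deposited table). A second PHLDA1 peak was at -0.28 (FDR 0.475, from the authors' deposited table). The larger KEGG MAPK signaling pathway had 29 of 104 genes as members (27.9%), near the 25.6% of all genes with a KEGG term. The higher share thus held for the list and not for that pathway.

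Calls in the stress and signalling lists were few in number and are set beside the 17.1% called over all peaks. Of 9 immediate early and stress response genes with any peak, 5 were members (55.6%, against 22.7% of all genes), with 6 peaks, of which 2 were called (33.3%): NR4A1, described above, and the anti-apoptotic MCL1 at 0.20 (FDR 0.00170, from the authors' deposited table). MYC had peaks at 1.35 and -0.41 (FDRs 0.455 and 0.316, from the authors' deposited table). Of 2 genes with upstream open reading frames or integrated stress response roles, AZIN1, an inhibitor of antizyme, was called at 0.44, and ATF4 was at -2.87 (FDR 0.0759, from the authors' deposited table). The 2 heat shock members were HSF1, the factor that induces chaperone genes, called at 0.98 with an FDR of 0.0457, and HSP90AA1 at -0.67 (FDR 0.530, from the authors' deposited table). SMAD7, an inhibitor of TGF-beta receptors, and the beta-catenin scaffold AXIN1 were the 2 called among 7 members of the TGF-beta and Wnt list (28.6% called), at 0.66 and 0.28 (FDRs 0.01 and 3.02e-05, from the authors' deposited table). Of the 3 epithelial, junction and matrix genes, with 4 peaks, SPP1 was the 1 called, in both of its peaks.

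Of the translation lists, 3 of 11 terminal oligopyrimidine genes (27.3%) and 5 of 22 ribosomal protein genes (22.7%) were members, against 22.7% of all genes. RACK1, a ribosome-bound scaffold, was the 1 called of the 3, at -0.92 (FDR 0.000126, from the authors' deposited table). The 5 ribosomal protein genes had 5 peaks, 0 of them called by the authors' FDR, from -0.37 in RPS25 to -2.38 in RPS13. CMTR2, which methylates the ribose of the second transcribed base, was the 1 member among 9 m6A and cap methylation enzymes in the table, at 0.26 (FDR 0.0347, from the authors' deposited table). Of 9 m6A reader and cap-binding translation genes in the table, 0 were members. The proteasome and ubiquitin conjugation genes had 1 of 7 peaks called (14.3%), in PSMD12. Solute carriers had 2 lower and 3 higher among 35 peaks (14.3% called), and both shares lie near the 17.1% of all peaks. The called solute carriers included SLC6A6, the taurine transporter, at -0.49 and SLC33A1, an acetyl-coenzyme A transporter, at 0.35 (FDRs 0.00871 and 0.00724, from the authors' deposited table). HHEX, at 0.54 (FDR 0.0525, from the authors' deposited table), was the 1 thyroid lineage gene among the members.

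Of the 222 genes with several members, 63 had peaks of both signs. There were 1315 genes with 1 member, 181 with 2 and 41 with 3 or more, and the 1812 peaks form 1638 separate places. In 108 of the 222 genes all of them overlap in 1 place, so they are not independent. Of 26 genes with 2 or more called members, 13 were higher in all of these, 9 were lower in all, and 4 had calls in both directions. ATG12, which is conjugated to ATG5 in autophagy, had separate lower peaks at -0.76 and -0.71 on chromosome 5, 115841388 to 115841567 and 115841627 to 115841807 (FDRs 0.000135 and 0.0234, from the authors' deposited table). BCS1L, an assembly factor of respiratory complex III, had calls in both directions, at -0.50 over 2537 bases and at 0.43 over 1000 bases in separate places (FDRs 0.0380 and 0.0129, from the authors' deposited table). TCEAL9 was at -0.31 in its peak from 103357595 to 103357984 on chromosome X and at 0.24 in its peak from 103356489 to 103356758 (FDRs 6.31e-07 and 0.0479, from the authors' deposited table). PCBP4 and IL4I1 were the other genes with calls in both directions.

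In 6 genes a called 5' UTR peak stood beside a called exon peak. SEC63, of the translocation machinery of the endoplasmic reticulum, went opposite ways, with overlapping 5' UTR peaks at 0.89 and 0.88 and an exon peak at -0.40 (FDRs 0.0282, 0.0447 and 0.00245, from the authors' deposited table). SET and SLC25A46 were lower in both places, RAI1 and MYO9B higher in both. The RAI1 5' UTR peak covers 109106 bases. KRTAP2-2 was higher in both, but its exon peak lies within the 5' UTR peak.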

How the data were processed

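The authors' deposited table gives 1 row per m6A peak, and no value per library. Per the submitters' processing notes, the tools were HISAT2, fastp, edgeR, StringTie, ChIPseeker and HOMER, and the builds hg38 and GRCh38, with no role given for any. Which tool called the differential peaks, with which filters or pooling, is not given in the sources used here. Fragmented poly(A) RNA was, per the labels' protocols, immunoprecipitated with an m6A antibody and sequenced as dUTP-marked paired-end libraries. The log2 fold change and the p-value are the authors' deposited values. The score of each peak is the authors' log10 FDR, per the file headers, and was turned into a linear FDR. Recomputing the Benjamini-Hochberg adjustment over all peaks gave a median ratio of 1.90 of deposited to recomputed values. The span and the distance to the annotated start are the authors' values in bases.

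Members were found by gene name and region. Calls used a deposited FDR under 0.05, and the alternatives are in the closing section. RefSeq starts and sequences (GRCh38.p14) were matched by gene symbol: 1761 members matched a RefSeq gene, and 1633 of these overlap its bounds. The members and the 16 gene lists were chosen with earlier results of these data known. Named genes were the 8 lowest and 8 highest called peaks of at most 1000 bases, the 4 of smallest p in each direction, the 3 lowest and 3 highest above 1000 bases and at most 3 called per list, without clone, predicted and readthrough names. Genes named for several peaks or for exon peaks, and list members that were not called, were chosen after their values were seen. No set test was run. The adjustment and the rule were tested on simulated data. The work used numpy 2.4.6, pandas 2.3.3, matplotlib 3.10.9 and scipy 1.17.1 under Python 3.11.15.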

Additional observations from a re-analysis of the deposited data

How the results depend on the processing

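At an FDR under 0.01 there were 159 peaks called, 87 lower and 72 higher. Requiring a change of 1 or more on the log2 scale left 39, with 18 lower and 21 higher (46.2% lower). Spans of at most 1000 bases alone gave 115, with 64 lower and 51 higher. Subtracting the median of all peaks turned the members' median log2 fold change to 0.0765 and the share of lower calls to 46.8%, by construction of the shift. It brought the share of lower calls over all peaks to 53.9%. The other alternatives were a p under 0.01, a recomputed adjusted p, 1 peak per gene, genes with 5' UTR peaks alone, matching by gene identifier and leaving out peaks that overlap another gene's. Under these, counts stayed within 1.5 times the values reported (284 to 447 called) and the share of lower calls ran from 54.0 to 55.5%. No paired analysis was possible because the table holds 1 statistic per peak and no value per library, and for the same reason no library could be left out. Depth per peak is unknown, so a peak that was not called is not shown to be unchanged.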
